A study of Homo sapiens with 12 samples.

Results

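The genes described here are the 10 that carry gemcitabine, a difluorinated deoxycytidine analogue used against pancreatic cancer, into the cell and through nucleotide metabolism. They were taken by name from 63677 gene rows: SLC29A1 and SLC29A2 (uptake), DCK and CMPK1 (activation), CDA, DCTD, NT5C2 and SAMHD1 (inactivation or competing dephosphorylation) and RRM1 and RRM2 (target). All 10 were in the table, and all 10 passed the filter on low counts that left 17862 genes for testing. RNA was sequenced from PANC-1 and MIA PaCa-2, established human pancreatic carcinoma lines. Each line received an siRNA mix targeting RBM3, an RNA-binding protein induced by cold, or a negative control siRNA. The 4 groups, PANC-1 with RBM3 siRNA, PANC-1 with control siRNA, MIA PaCa-2 with RBM3 siRNA and MIA PaCa-2 with control siRNA, held 3 libraries each. All cells, controls included, were transfected with lipofectamine in serum-free medium at 25 nM siRNA for 4.5 h after 72 h of culture and were collected the next day. None of the labels names gemcitabine as a treatment, so the values are baseline transcript levels of the drug's pathway.

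Gemcitabine is hydrophilic and enters cells through nucleoside transporters, mainly the equilibrative transporter encoded by SLC29A1. Deoxycytidine kinase adds the first phosphate, which is rate-limiting, and further kinases make the diphosphate, an inhibitor of ribonucleotide reductase, and the triphosphate, which is built into DNA. Cytidine deaminase, deoxycytidylate deaminase and nucleotidases work against this accumulation, and in pancreatic cancer the levels of these proteins have been studied as markers of drug response.

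Levels are in CPM after TMM normalisation, which scales the counts of each library for its size and makeup. Libraries held between 14217185 and 39652502 counts in total. A count of 0 allows up to 3 counts, or between 0.0714 and 0.208 CPM depending on the library. RBM3 itself was at 96.5, 195 and 83.0 CPM in the PANC-1 siRNA libraries and 567, 426 and 436 CPM in the controls, and at 44.4, 37.4 and 61.9 CPM in the MIA PaCa-2 siRNA libraries and 250, 277 and 207 CPM in the controls. It was lower in every siRNA library than in every control library of its line. One library stood apart: replicate 3 of PANC-1 with RBM3 siRNA. In it, 17 genes that were at 50 CPM or more in all MIA PaCa-2 libraries and at 1 CPM or less in the other PANC-1 libraries were at a median of 38.6% of their MIA PaCa-2 level, against medians of at most 0.372% in the other PANC-1 libraries. In the same library, 59 genes found in PANC-1 alone by the mirror-image rule were at a median of 51.6% of their PANC-1 level. Results that rest on it are given with and without it. Of the 7 epithelial markers, 7 averaged over 1 CPM in PANC-1 and 4 in MIA PaCa-2, where EPCAM, CDH1 and KRT7 stayed under 1 CPM in every library. Markers of other cell types were mixed. INS, GCG and PECAM1, defining markers of endocrine and endothelial cells, were at 0 in all libraries, while SYP, an endocrine marker, lay between 5.45 and 14.4 CPM in all of them. CDH5, an endothelial marker, was at 7.57 CPM in MIA PaCa-2 control replicate 1, against 0 and 0.379 CPM in the other controls of that line. The 6 fibroblast markers did not go together. COL1A2 was at 441 CPM in the PANC-1 replicate 3 named above and at most 1.67 CPM in the other PANC-1 libraries. In MIA PaCa-2 it was between 899 and 1814 CPM. COL3A1 was at 21.7 CPM in that replicate 3, at most 8.46 CPM in the other PANC-1 libraries and at least 22.0 CPM in MIA PaCa-2. COL1A1 went the other way, between 61.8 and 232 CPM in PANC-1 and between 0.428 and 1.69 CPM in MIA PaCa-2. DCN and LUM were at most 0.0856 CPM and PDGFRB at most 1.38 CPM in any library.

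**Figure D1:**
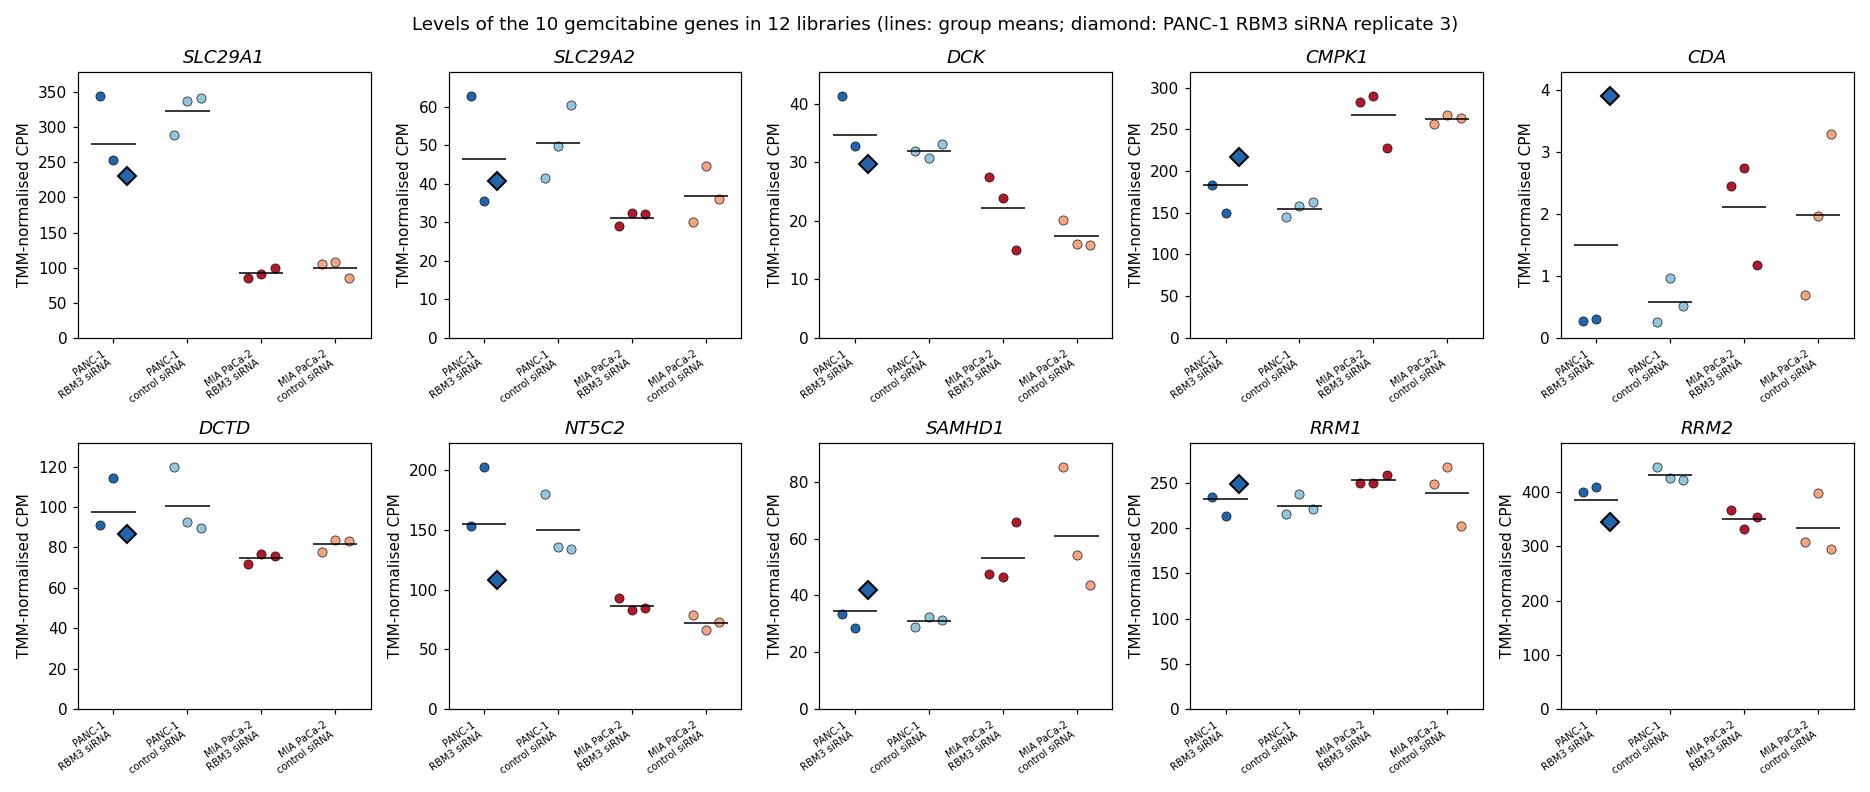
TMM-normalised CPM (y axis, linear from 0, own scale per gene) of the 10 genes in each library (points) of the 4 groups (x axis), with group means as lines. The diamond marks replicate 3 of PANC-1 with RBM3 siRNA, which for CDA lies at 3.90 CPM while the other PANC-1 siRNA libraries lie at 0.273 and 0.310 CPM.

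The comparison of the lines asks how the pathway differs between the 2 lines. Under control siRNA, 6 of the 10 genes passed the test, with 4 higher in PANC-1 and 2 lower. Among all genes tested 50.8% passed, so this share is near the background. Libraries of the lines did not overlap for 7 of the 10 genes, against 61.5% of all genes. SLC29A1, NT5C2, DCK and RRM2 were higher, and SAMHD1 and CMPK1 were lower. The median log2 fold change of the 10 genes was 0.34, and that of all genes tested was 0.00. In bulk RNA, fewer cells expressing a gene and less RNA per cell cannot be told apart.

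Among the transporters, SLC29A1 had the largest difference of the 6 genes that passed. In PANC-1 it was at 345, 253 and 231 CPM with RBM3 siRNA and 290, 337 and 342 CPM with control siRNA. In MIA PaCa-2 it was at 85.4, 90.7 and 99.1 CPM with RBM3 siRNA and 106, 108 and 85.3 CPM with control siRNA. Every PANC-1 library lay above every MIA PaCa-2 library. The log2 fold change between the lines was 1.70 (SE 0.18, edgeR adjusted p = 1.19e-05) under control siRNA and 1.59 (SE 0.17, edgeR adjusted p = 2.08e-05) under RBM3 siRNA. SLC29A2, which encodes the second equilibrative transporter, was at 41.5, 49.8 and 60.6 CPM in PANC-1 controls and 30.1, 44.7 and 36.0 CPM in MIA PaCa-2 controls. These libraries overlapped, and its log2 fold change of 0.46 (SE 0.23) did not pass (edgeR adjusted p = 0.122). Per exon length, the ratio of SLC29A1 to SLC29A2 was 3.99 ± 0.442 in PANC-1 controls and 1.71 ± 0.400 in MIA PaCa-2 controls (SD, n = 3).

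Of the activating kinases, one was higher and the other lower in PANC-1. DCK, which adds the first phosphate, was at 31.8, 30.7 and 33.0 CPM in PANC-1 controls and 20.1, 16.0 and 15.8 CPM in MIA PaCa-2 controls. The groups did not overlap, with a log2 fold change of 0.88 (SE 0.23, edgeR adjusted p = 0.00741). CMPK1, which encodes the UMP/CMP kinase that adds the second phosphate, was at 144, 157 and 163 CPM in PANC-1 controls and 257, 267 and 264 CPM in MIA PaCa-2 controls. All PANC-1 libraries were lower, with a log2 fold change of -0.76 (SE 0.16, edgeR adjusted p = 0.00181). In the reference annotation an exon of DCK overlaps MOB1B on the same strand, so reads there could have been counted for either gene or neither.

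The genes of inactivation went in different directions. NT5C2, a cytosolic nucleotidase that removes phosphate from nucleoside monophosphates, was at 180, 136 and 134 CPM in PANC-1 controls and 78.6, 66.0 and 72.5 CPM in MIA PaCa-2 controls. No libraries overlapped, and the log2 fold change was 1.05 (SE 0.21, edgeR adjusted p = 0.00141). DCTD, the deaminase of deoxycytidine monophosphate, was at 120, 92.7 and 89.7 CPM in PANC-1 controls and 77.8, 83.7 and 83.5 CPM in MIA PaCa-2 controls. All PANC-1 controls were higher, but the log2 fold change of 0.30 (SE 0.16) did not pass (edgeR adjusted p = 0.126).

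SAMHD1, a triphosphohydrolase that degrades deoxynucleoside triphosphates, was at 28.8, 32.5 and 31.3 CPM in PANC-1 controls and 85.1, 54.1 and 43.5 CPM in MIA PaCa-2 controls. All PANC-1 controls were lower, with a log2 fold change of -0.98 (SE 0.25, edgeR adjusted p = 0.00575). MIA PaCa-2 control replicate 1 was the highest of all libraries. Without it the log2 fold change was -0.64 and the gene still passed. That library also had 20.5 CPM of CD14, a monocyte marker, against 4.97 and 5.55 CPM in the other MIA PaCa-2 controls. It had the 7.57 CPM of CDH5 given above, while PTPRC and CD3E were at or near 0. The part of these in the SAMHD1 value was not tested.

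CDA, cytidine deaminase, which converts gemcitabine to its inactive uridine form, was the least abundant of the 10. It had 6, 14 and 11 counts (0.257, 0.971 and 0.507 CPM) in PANC-1 controls and 29, 30 and 52 counts (0.690, 1.96 and 3.28 CPM) in MIA PaCa-2 controls. The groups overlapped, and the log2 fold change of -1.79 (SE 0.98) did not pass (edgeR adjusted p = 0.146). In a fit without PANC-1 siRNA replicate 3 it was -1.77 (SE 0.61) and passed (edgeR adjusted p = 0.0277). The adjusted p ran from 0.0250 to 0.403 over the alternatives tried.

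Of the subunits of ribonucleotide reductase, the enzyme that makes deoxynucleotides and that gemcitabine diphosphate inhibits, RRM2 was higher in PANC-1 and RRM1 did not pass. RRM2, the small subunit that varies with the cell cycle, was at 446, 426 and 423 CPM in PANC-1 controls and 307, 399 and 295 CPM in MIA PaCa-2 controls. All PANC-1 controls were higher, with a log2 fold change of 0.37 (SE 0.15, edgeR adjusted p = 0.0471). This call was lost in 6 of 12 removals of a library, with adjusted p between 0.0111 and 0.174 over all alternatives. RRM1, the large catalytic subunit, was at 216, 238 and 221 CPM in PANC-1 controls and 249, 267 and 202 CPM in MIA PaCa-2 controls, and these overlapped. Its log2 fold change was -0.09 (SE 0.14, edgeR adjusted p = 0.608), with an approximate 95% interval of -0.36 to 0.18. RRM2B, a further small subunit, was taken with the other pathway genes described below. It averaged 38.0 CPM in MIA PaCa-2 controls and 45.5 CPM over the controls of both lines, so its mean was higher in PANC-1 controls.

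RRM2 has 3 named pseudogenes in the reference annotation, and its exons overlap AC007240.1 on the same strand. Exons of SLC29A2, NT5C2, SAMHD1 and RRM1 overlap a gene on the opposite strand. Reads there could have been counted for another row or left uncounted, so those values are uncertain to that extent.

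Under RBM3 siRNA, 4 of the 10 genes passed between the lines, against 43.6% of all genes tested. SLC29A1, NT5C2 and DCK were higher in PANC-1 and CMPK1 was lower, and these 4 also passed under control siRNA. The call of DCK (edgeR adjusted p = 0.0390) was lost in 8 of 12 removals of a library and in 4 of 8 other alternatives, with adjusted p up to 0.152. That of CMPK1 was lost in 4 of 12 removals and in 1 of 8 other alternatives, with adjusted p up to 0.0774. Of all genes 24.2% were higher and 19.3% lower. Libraries did not overlap for 8 of the 10, against 54.4% of all genes. Without PANC-1 replicate 3, 8 of the 10 passed, against 50.2% of 18422 genes tested in that fit. They were SLC29A1, SLC29A2, DCK, DCTD and NT5C2 (higher) and CMPK1, CDA and SAMHD1 (lower). CDA had a log2 fold change of -0.52 (SE 0.88, edgeR adjusted p = 0.653) with that library and -2.87 (SE 0.72, edgeR adjusted p = 0.00512) without it. RRM1 and RRM2 did not pass in either fit.

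**Figure D2:**
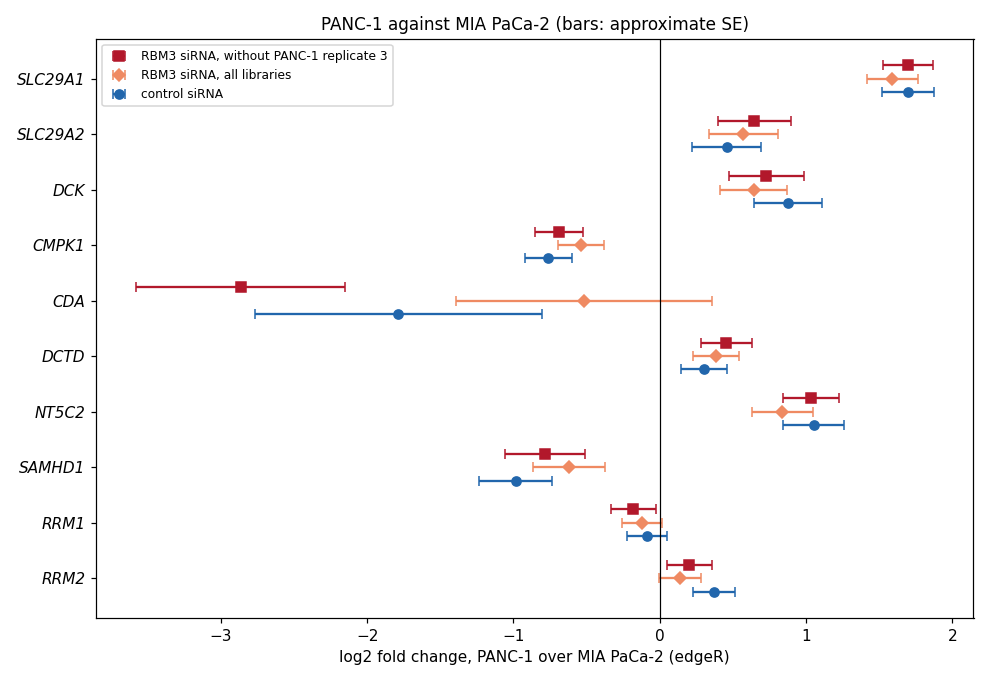
The edgeR log2 fold change of PANC-1 over MIA PaCa-2 (x axis) for the 10 genes (rows), with bars of 1 approximate SE, under RBM3 siRNA without PANC-1 replicate 3 (squares), RBM3 siRNA with all libraries (diamonds) and control siRNA (circles). SLC29A1 lies at 1.70, 1.59 and 1.70, while CDA moves between -2.87 and -0.52 under RBM3 siRNA with that one library.

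The siRNA comparison asks whether the drug's pathway depends on RBM3 in each line. RBM3 itself, the target, passed in MIA PaCa-2 (log2 fold change -2.35, SE 0.31, edgeR adjusted p = 0.0426) and did not in PANC-1 (log2 fold change -1.93, SE 0.30, edgeR adjusted p = 0.516). In PANC-1, 0 of the 10 genes passed in edgeR, against 0% of all genes tested, and 0 had an unadjusted p under 0.05, against 4.12% of all genes. In MIA PaCa-2, 0 of the 10 passed, against 0.0112% of all genes, and 0 had an unadjusted p under 0.05, against 2.94%. DESeq2 and limma-voom also called 0 of the 10 in both lines. In a fit without PANC-1 siRNA replicate 3, RBM3 did not pass in PANC-1 either, where 0 of 18422 genes tested passed. The difference between the responses passed for 0 of the 10 genes, where 0% of all genes passed. At an unadjusted p under 0.05 it was 0 of the 10 genes and 2.98% of all genes.

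The intervals show which sizes the data leave in range. In PANC-1 the log2 fold change of SLC29A1 was -0.23, with an approximate 95% interval of -0.56 to 0.11. For DCK in PANC-1 it was 0.12, with an interval of -0.33 to 0.57. Without PANC-1 siRNA replicate 3 these changes were -0.13 (SE 0.18) for SLC29A1 and 0.20 (SE 0.26) for DCK. RRM1 and RRM2 had the narrowest intervals of the 10 in both lines. In MIA PaCa-2 they ran from -0.19 to 0.35 for RRM1 and from -0.21 to 0.35 for RRM2.

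A few genes did not overlap between RBM3 siRNA and control siRNA although they did not pass. In MIA PaCa-2, NT5C2 was at 92.7, 82.9 and 84.2 CPM with RBM3 siRNA and 78.6, 66.0 and 72.5 CPM with control siRNA (log2 fold change 0.26, SE 0.21). DCTD was at 71.6, 76.7 and 75.8 CPM with RBM3 siRNA and 77.8, 83.7 and 83.5 CPM with control siRNA (log2 fold change -0.13, SE 0.16). These 2 of 10 genes compare with 8.04% of all genes whose libraries did not overlap. In PANC-1 it was RRM2, at 401, 409 and 346 CPM with RBM3 siRNA and 446, 426 and 423 CPM with control siRNA (log2 fold change -0.16, SE 0.14), and 6.52% of all genes did not overlap.

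The other genes overlapped between the siRNA groups. DCK was at 27.5, 23.9 and 15.0 CPM with RBM3 siRNA and 20.1, 16.0 and 15.8 CPM with control siRNA in MIA PaCa-2, where replicate 5 with RBM3 siRNA was the lowest. It had the smallest unadjusted p of the 10 in that line (edgeR, 0.151). CMPK1 had the smallest in PANC-1 (edgeR, 0.147), at 183, 150 and 217 CPM with RBM3 siRNA and 144, 157 and 163 CPM with control siRNA. Replicate 3 was the highest, and without it the log2 fold change in PANC-1 was 0.09, against 0.24 with it.

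SAMHD1 was at 33.5, 28.6 and 41.8 CPM with RBM3 siRNA and 28.8, 32.5 and 31.3 CPM with control siRNA in PANC-1. In MIA PaCa-2 it was at 47.6, 46.5 and 65.9 CPM with RBM3 siRNA and 85.1, 54.1 and 43.5 CPM with control siRNA. Its log2 fold change there was -0.20 (SE 0.25), and 0.14 without control replicate 1, so that one library set the sign. RRM1 was at 250, 250 and 259 CPM with RBM3 siRNA in MIA PaCa-2 and at 234, 214 and 249 CPM with RBM3 siRNA in PANC-1, within or near the range of the controls. NT5C2 was at 154, 202 and 108 CPM with RBM3 siRNA in PANC-1, with replicate 3 lowest, against 180, 136 and 134 CPM with control siRNA. Its log2 fold change there was 0.04 with replicate 3 and 0.23 without it. DCK was at 41.3, 32.8 and 29.7 CPM with RBM3 siRNA in PANC-1, overlapping the controls. SLC29A2 was at 62.9, 35.7 and 40.8 CPM with RBM3 siRNA and 41.5, 49.8 and 60.6 CPM with control siRNA in PANC-1, and at 29.2, 32.3 and 32.2 CPM with RBM3 siRNA in MIA PaCa-2. DCTD was at 91.1, 114 and 86.9 CPM with RBM3 siRNA in PANC-1, where both siRNA groups overlapped.

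CDA in PANC-1 turned on that one library. It had 9, 10 and 126 counts (0.273, 0.310 and 3.90 CPM) with RBM3 siRNA and 6, 14 and 11 counts with control siRNA. The log2 fold change was 1.42 (SE 0.97) with replicate 3 and -0.93 (SE 0.75) without it, and neither passed. Replicate 3 had 3.90 CPM with an exact Poisson 95% interval of 3.25 to 4.64, which covers counting error only. That is 184% of the mean of MIA PaCa-2 with RBM3 siRNA. The highest MIA PaCa-2 library had 3.28 CPM, with an interval of 2.45 to 4.30.

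**Figure D3:**
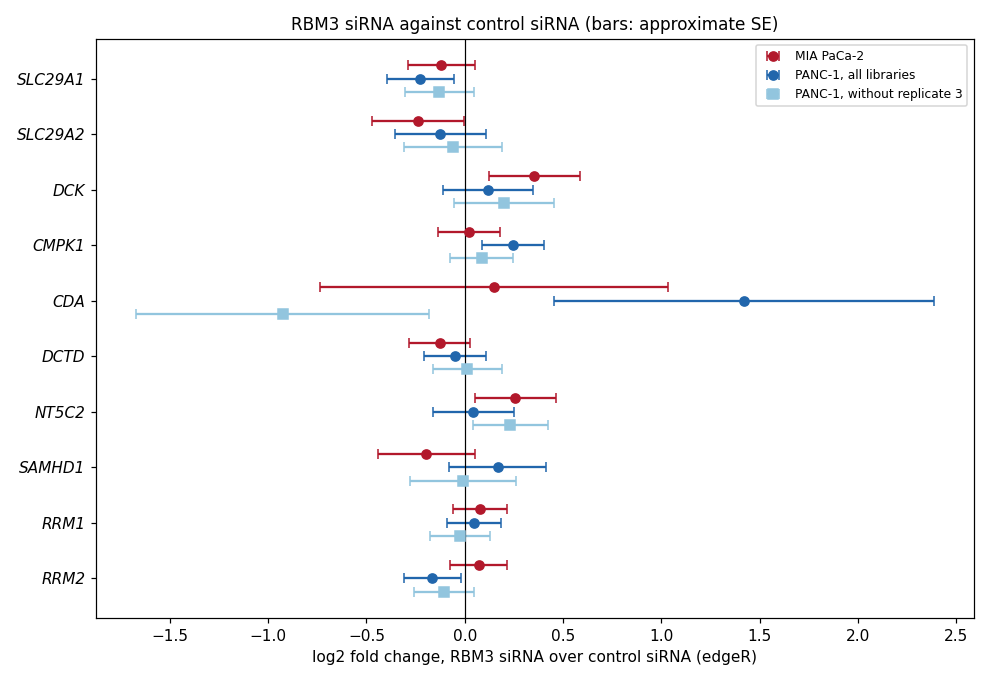
The edgeR log2 fold change of RBM3 siRNA over control siRNA (x axis) for the 10 genes (rows), with bars of 1 approximate SE, in MIA PaCa-2, in PANC-1 and in PANC-1 without replicate 3. CDA in PANC-1 lies at 1.42 with that library and -0.93 without it, and the other genes lie between -0.24 and 0.35.

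Levels of different genes were set against each other per length, as length-scaled values (TPM) from exon-union lengths. In PANC-1 controls RRM2 was highest at 318 ± 5.47 TPM, then SLC29A1 at 287 ± 31.0, RRM1 at 211 ± 15.4 and CMPK1 at 158 ± 12.3 TPM (SD, n = 3), and none of these neighbours overlapped. NT5C2 and DCTD, both at 114 TPM, overlapped. SLC29A2 at 73.1, DCK at 38.7, SAMHD1 at 10.8 and CDA at 2.38 TPM followed, with no overlap between neighbours. In MIA PaCa-2 controls CMPK1 at 266, RRM2 at 242 and RRM1 at 223 TPM overlapped in that order. DCTD at 91.6 and SLC29A1 at 88.2 TPM overlapped, as did NT5C2 at 55.1 and SLC29A2 at 52.3 TPM, and SAMHD1 at 21.5 and DCK at 21.1 TPM. CDA was lowest at 7.78 TPM. SLC29A1 was thus 2nd of 10 in PANC-1 and 5th in MIA PaCa-2 controls. With coding length in place of exon length it was 3rd and 5th, and CMPK1 was 2nd and 1st.

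**Figure D4:**
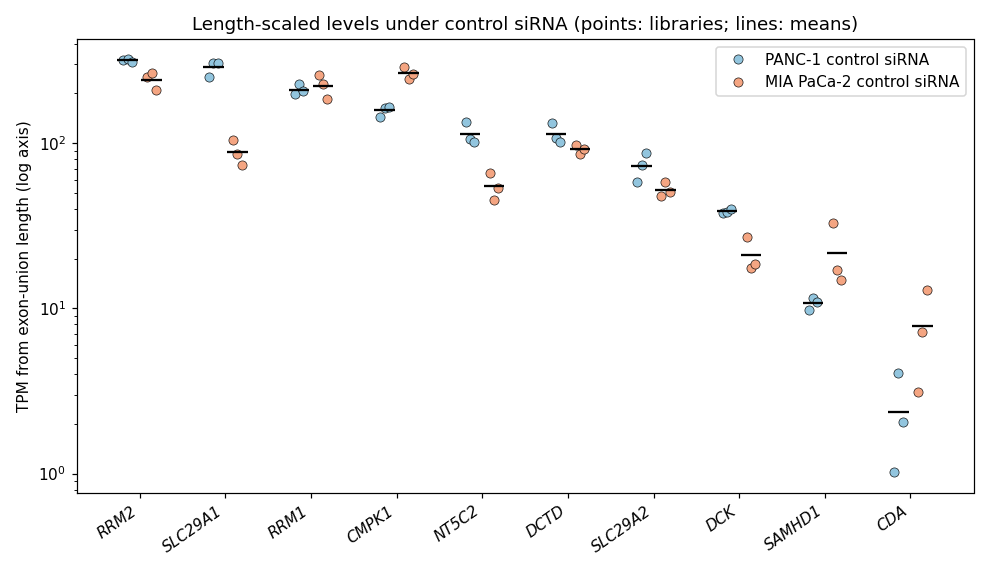
Length-scaled TPM (y axis, log scale) of the 10 genes (x axis, in the order of their PANC-1 control means) in each control library (points), PANC-1 left and MIA PaCa-2 right, with means as lines. The order runs from RRM2 at 318 TPM to CDA at 2.38 TPM in PANC-1, and SLC29A1 is at 287 TPM in PANC-1 and 88.2 TPM in MIA PaCa-2.

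Some of the 10 genes varied together between replicates. Deviations of log2 CPM from the group mean were compared over the 12 libraries, as a description. They were set against the mean deviation of 21 S-phase genes in the table. FEN1, 1 of the 21, was near the floor, with at most 1.04 CPM in any library. Whether its reads were counted for another row or left uncounted was not tested. These libraries share their group means and normalisation. No share of all genes with such correlations is given, so they cannot be read as particular to the 10 genes. Pearson's r was 0.87 for SAMHD1, 0.80 for RRM1, 0.49 for SLC29A1 and 0.10 for RRM2. Without PANC-1 siRNA replicate 3, an alternative chosen after the values were seen, the 11 libraries gave 0.86 for SAMHD1, 0.78 for RRM1, 0.76 for SLC29A1 and 0.26 for RRM2. CDA had an r of -0.19 with that library and -0.68 without it. Between pairs of the 10 genes the largest positive values were 0.76 for DCTD with NT5C2, 0.75 for CMPK1 with CDA and 0.70 for SLC29A1 with SLC29A2. Without that library they were 0.75, 0.49 and 0.71. The most negative were -0.76 for CMPK1 with NT5C2, -0.74 for CDA with NT5C2 and -0.68 for CMPK1 with DCTD, which without it were -0.54, -0.36 and -0.59. The most negative pair without it was SLC29A2 with NT5C2 (r -0.91). SAMHD1 also had an r of 0.87, both with and without that library, with a list of 18 interferon-stimulated genes, chosen after the values were seen. Their mean log2 CPM was 3.69 in MIA PaCa-2 control replicate 1 and 2.43 and 2.72 in the other controls of that line.

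**Figure D5:**
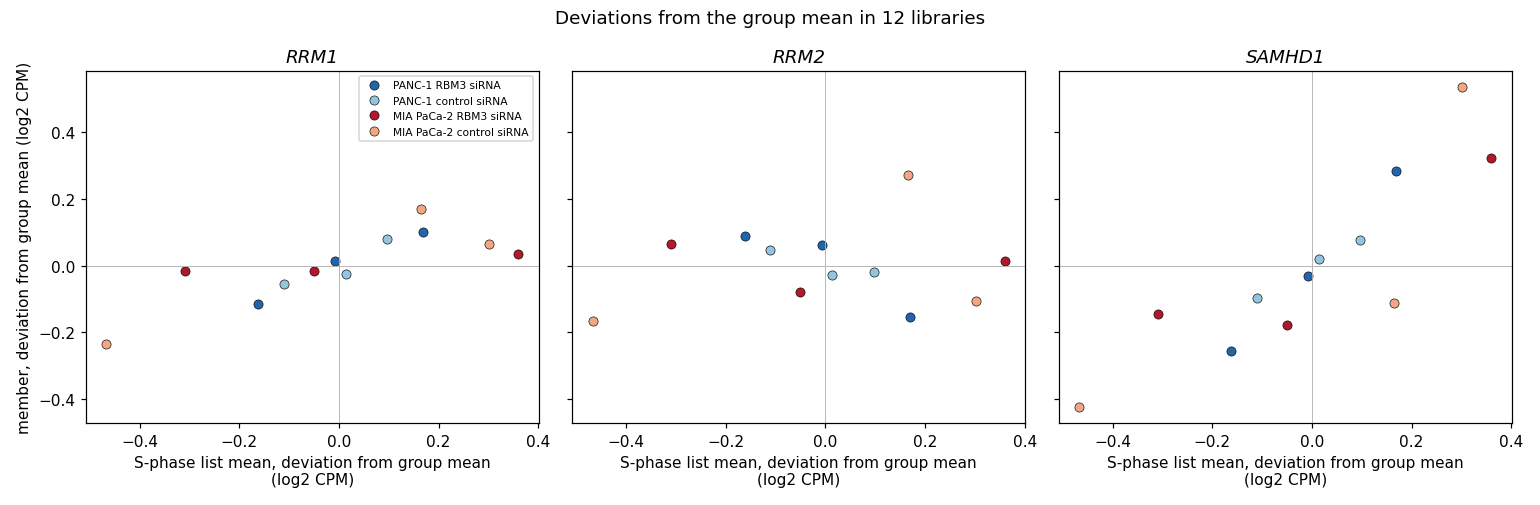
Deviation from the group mean (log2 CPM) of RRM1, RRM2 and SAMHD1 (y axis) against that of the S-phase gene mean (x axis) in the 12 libraries (points, by group). RRM1 and SAMHD1 rise with the S-phase mean (r of 0.80 and 0.87), and RRM2 does not (r of 0.10). RRM1 spans only -0.23 to 0.17, and SAMHD1 spans -0.42 to 0.54. Without PANC-1 siRNA replicate 3 the values are 0.78, 0.86 and 0.26.

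The windows upstream of the starts of RRM1, RRM2 and SAMHD1 are shown because these genes carry the contrast in that pattern. They are the 250 bases before the RefSeq start on GRCh38.p14, 5′ to 3′ on the gene's strand, with CCAAT on either strand in capitals.
RRM1 chr11:4094435-4094684 (+): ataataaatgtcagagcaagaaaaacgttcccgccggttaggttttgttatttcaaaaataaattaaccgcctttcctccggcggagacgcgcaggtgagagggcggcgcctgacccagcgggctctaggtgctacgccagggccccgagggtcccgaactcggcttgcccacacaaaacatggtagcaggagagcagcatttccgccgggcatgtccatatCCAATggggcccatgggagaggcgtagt
RRM2 chr2:10122489-10122738 (+): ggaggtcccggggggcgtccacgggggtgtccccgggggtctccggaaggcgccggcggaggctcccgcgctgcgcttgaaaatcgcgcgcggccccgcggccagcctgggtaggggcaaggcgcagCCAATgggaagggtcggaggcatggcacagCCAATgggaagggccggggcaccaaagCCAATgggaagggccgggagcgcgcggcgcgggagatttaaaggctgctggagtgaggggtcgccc
SAMHD1 chr20:36951709-36951958 (−): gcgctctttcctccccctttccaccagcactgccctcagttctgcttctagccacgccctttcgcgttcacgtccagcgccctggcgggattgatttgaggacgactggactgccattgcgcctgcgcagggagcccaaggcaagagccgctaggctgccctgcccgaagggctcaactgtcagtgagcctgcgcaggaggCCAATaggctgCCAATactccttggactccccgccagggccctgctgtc
CCAAT, searched on both strands, occurred 1 time for RRM1, 3 times for RRM2 and 2 times for SAMHD1. Among 35116 windows of this length 32% held it at least once, 9.53% at least 2 times and 2.93% at least 3 times. The motif TTTNNCGC, searched on both strands, was in 5.92% of windows and in none of these. RRM2 has a second RefSeq start, whose window chr2:10122318-10122567 (+) held 1 CCAAT, so the sequence printed is 1 of 2 for that gene. A match describes letters only. Of the 10 genes 9 had a window in the table.

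By a fixed likeness rule, the genes closest to each pattern over the 12 libraries were named. For RRM1 they were RFC5 (r 0.88), IKBIP and MACROH2A1, and for RRM2 they were PDCD5 (r 0.93), SEC61G and NOL7. For CDA they were GTF2IP4 (r 0.89), MSL1 and ZCCHC24. SLC29A1 was closest to TMEM14A, CABLES1 and H19 (r 0.99 each), and 722 genes had an r over 0.95 with it. Without PANC-1 siRNA replicate 3 the 3 genes named for RRM1 and for SLC29A1 were the same. For RRM2 they were then TPM3 (r 0.94), PSMB1 and PDCD5, and for CDA they were MSL1 (r 0.96), ZNF710-AS1 and SRSF4.

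Of 46 further genes of nucleoside transport, drug efflux and nucleotide metabolism, 40 were tested. Under control siRNA 13 were higher and 10 lower in PANC-1, where 26% of all genes were higher and 24.8% lower. Their median log2 fold change was 0.16. With RBM3 siRNA 0 of the 40 passed in either line.

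Among the transporters and pumps, 2 of 4 efflux pumps tested were higher in PANC-1 and 2 of 3 further transporters were lower. ABCG2, a drug efflux pump, was at 15.3, 56.9 and 33.7 CPM in PANC-1 controls and 1.12, 0.0654 and 0.252 CPM in MIA PaCa-2 controls (log2 fold change 5.93, SE 0.78, edgeR adjusted p = 8.27e-05). ABCC4, a pump of nucleotide analogues, averaged 91.0 ± 14.3 CPM in PANC-1 controls and 30.1 ± 4.16 CPM in MIA PaCa-2 controls (SD, n = 3). SLC29A4, an equilibrative transporter relative that carries monoamines, averaged 40.8 ± 13.0 CPM in PANC-1 controls and 77.6 ± 20.8 CPM in MIA PaCa-2 controls (SD, n = 3). SLC28A1, a concentrative nucleoside transporter, was near the floor in PANC-1 controls, at 0.0428, 0.208 and 0.0921 CPM. In MIA PaCa-2 controls it was at 3.45, 0.982 and 1.20 CPM. SLC28A2 and SLC28A3, of the same family, were at most 0.124 CPM in any library and were not tested.

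Of 12 nucleotidases and other enzymes of nucleotide and nucleoside breakdown tested, 4 were higher and 4 lower in PANC-1. TYMP, thymidine phosphorylase, was at 41.3, 31.3 and 38.3 CPM in PANC-1 controls and 0.524, 0.458 and 0.505 CPM in MIA PaCa-2 controls (log2 fold change 6.19, SE 0.38, edgeR adjusted p = 1.81e-07). UPP1, uridine phosphorylase, averaged 305 ± 62.2 CPM in PANC-1 controls and 16.2 ± 3.33 CPM in MIA PaCa-2 controls (SD, n = 3). DPYD, which degrades uracil and thymine, was at 6.89, 7.07 and 5.25 CPM in PANC-1 controls and 193, 192 and 181 CPM in MIA PaCa-2 controls (log2 fold change -4.88, SE 0.92, edgeR adjusted p = 0.000999). In PANC-1 with RBM3 siRNA it was at 4.30, 7.90 and 96.8 CPM, the last in replicate 3. Without that library in the fit, the log2 fold change of DPYD between the controls was -4.87 (SE 0.24, edgeR adjusted p = 8.73e-09). NT5M, a mitochondrial nucleotidase, had a log2 fold change of -1.07 (SE 0.31).

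Of 11 further kinases tested, 4 were higher and 1 was lower in PANC-1. TK2, the mitochondrial kinase that phosphorylates thymidine and deoxycytidine, was lower, with 5.05 ± 0.749 CPM in PANC-1 controls and 21.7 ± 0.193 CPM in MIA PaCa-2 controls (SD, n = 3). The nucleoside diphosphate kinase family members NME3, NME4 and NME6 were higher, with log2 fold changes of 1.06, 0.76 and 0.75. Rows for NME1, NME2 and their readthrough gene held 0 or 1 counts per library. These genes overlap each other, so their rows cannot be read as low expression.

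In the group that supplies ribonucleotide reductase and makes pyrimidines, 3 of 10 tested genes were higher and 3 were lower in PANC-1. GLRX, a glutaredoxin, averaged 13.3 ± 1.48 CPM in PANC-1 controls and 1.35 ± 0.314 CPM in MIA PaCa-2 controls (SD, n = 3). Of the CTP synthases, CTPS1 was higher (log2 fold change 1.48, SE 0.32) and CTPS2 lower (log2 fold change -2.60, SE 0.44). Without PANC-1 siRNA replicate 3 in the fit, these were 1.48 (SE 0.25) and -2.59 (SE 0.26). DHODH, an enzyme of pyrimidine synthesis, was lower (log2 fold change -1.29, SE 0.22). Of 21 S-phase genes tested, 3 were higher and 5 lower in PANC-1 controls, with a median log2 fold change of 0.05.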

How the data were processed

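The authors deposited 1 table of unnormalised read counts for 12 libraries, with Ensembl genes as rows. STAR, Picard, featureCounts and Subread were used with build hg19 (GRCh37), per the submitters' processing notes. The strand setting and annotation were not given in the sources used here. A read shared by overlapping genes on either strand may therefore be assigned to the wrong one or to none. Per the labels' protocols, libraries were Illumina TruSeq, paired-end, 75 bp. The labels give both total and cytoplasmic RNA as material and do not call the replicates separate cultures. The p-values therefore reflect spread among these samples only, and that spread may be technical.

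The 10 genes and all lists were chosen with earlier results of these data known. Symbols came from a gene name table that gave one for 39699 rows. Tests were two-sided quasi-likelihood F-tests in edgeR 4.0.16 (R 4.3.3) with TMM normalisation, filterByExpr at a minimum count of 10, 1 model of 4 group means (8 residual degrees of freedom) and Benjamini-Hochberg adjustment over 17862 genes at 0.05. The SE is the absolute log2 fold change over the square root of F, and intervals derived from it are approximate. An exact permutation test of 3 against 3 libraries cannot go below 0.1. TPM used exon-union lengths from a GRCh38 annotation, a build other than that of the counts. Correlations used log2(CPM + 0.5). The likeness rule took the 3 genes with the highest Pearson correlation among those with a mean of at least 10 CPM. These were 9901 or fewer over 12 libraries, and 9906 or fewer without PANC-1 siRNA replicate 3. Pathway genes named were, per list, up to 4 that passed between the lines under control siRNA with the largest log2 fold change at a mean of 2 CPM or more. SLC28A1, SLC28A2, SLC28A3, RRM2B and genes named to describe single libraries or rows without counts were chosen after their values were seen. The test was checked on simulated counts. Alternatives were DESeq2 1.42.0, limma-voom (limma 3.58.1), other size factors, other filters, a threshold of 0.01, the 6 libraries of a comparison alone, a replicate block, coding length and the removal of each library. Replicates of a group differed by more than sampling noise, with a chi-square per degree of freedom between 10.6 and 164.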

Additional observations from a re-analysis of the deposited data

How the results depend on the processing

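The count of the 10 genes that passed was 0 under every alternative tried for RBM3 siRNA in either line and for the difference of the responses, and between 5 and 7 for the lines under control siRNA. Under RBM3 siRNA the count between the lines was 4. Over 9 alternatives that did not leave out single libraries it was between 2 and 6. It was 2 at a threshold of 0.01 and 2 with the 6 libraries of the comparison alone. When 1 library was left out it was between 2 and 8. It was 2 without MIA PaCa-2 siRNA replicate 2 or PANC-1 siRNA replicate 1, and 8 without PANC-1 siRNA replicate 3. Coding length gave SLC29A2 44.4 and 32.3, CMPK1 270 and 462, DCTD 173 and 142, SAMHD1 18.5 and 37.6, RRM1 108 and 116 and RRM2 377 and 292 TPM in PANC-1 and MIA PaCa-2 controls.

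Directions turned only for log2 fold changes that did not pass. With no filter, the difference of responses of RRM1 was 0.0014, and with limma-voom that of CDA was -0.030. Deviations of same-numbered replicates from their group means had r between -0.49 and 0.27. With 3 libraries in a group these deviations depend on each other, so whether the numbers pair the libraries cannot be told. Under the replicate block, log2 fold changes in PANC-1 with siRNA were 0.041 for SLC29A2, -0.57 for CDA, -0.11 for SAMHD1 and -0.071 for RRM1, and the differences of responses were 0.056 for SLC29A1, -0.021 for CMPK1 and -1.49 for CDA. PANC-1 siRNA replicate 3 and MIA PaCa-2 siRNA replicate 5 have numbers that no other library has. The block therefore fitted these libraries exactly, and its contrasts rested on the remaining libraries. None of its values is independent of leaving out PANC-1 siRNA replicate 3. Under the block 6 genes passed between the lines under control siRNA and 4 under RBM3 siRNA, but the genes differed. CDA passed in both (edgeR adjusted p = 0.0250 and 0.00393), while RRM2 under control siRNA (edgeR adjusted p = 0.0728) and DCK under RBM3 siRNA (edgeR adjusted p = 0.0901) did not.

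When 1 library was left out, the siRNA log2 fold change in PANC-1 ran from -0.40 to 0.031 for SLC29A2, from -0.021 to 0.20 for DCK, from -0.93 to 1.97 for CDA, from -0.19 to 0.090 for DCTD, from -0.21 to 0.23 for NT5C2, from -0.0079 to 0.28 for SAMHD1 and from -0.023 to 0.093 for RRM1. In MIA PaCa-2 it ran from -0.042 to 0.12 for CMPK1, from -0.28 to 0.75 for CDA, from -0.40 to 0.14 for SAMHD1, from -0.036 to 0.15 for RRM1 and from -0.014 to 0.21 for RRM2. The difference of responses ran from -0.16 to 0.27 for SLC29A2, from -1.09 to 1.82 for CDA, from -0.061 to 0.22 for DCTD and from -0.10 to 0.075 for RRM1. The cause of these changes was not tested.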
